A study of Drosophila melanogaster with 10 samples.

Results

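Thoraces of adult male flies (Drosophila melanogaster) were compared between the Esg>yki and the control genotype at day 38, when the gut tumour transgene had been on for 14 days and then off for 24 days. Esg>yki flies carried esg-Gal4, tub-Gal80ts and UAS-GFP together with UAS-yki-act, which encodes an active form of the growth regulator Yorkie. Control flies carried the same driver, Gal80ts and GFP with a wild-type chromosome in place of the yki transgene. The esg driver acts in progenitor cells of the gut, and Gal80ts, a temperature-sensitive repressor, leaves it active at 29 °C and silences it at 18 °C. Both groups spent 14 days at 29 °C followed by 24 days at 18 °C, so they shared age and temperature as well as driver, Gal80ts and GFP. Each library pooled 8 to 10 thoraces, and each group had 1 library, so 2 of the 10 libraries of the series make the comparison and no difference between them has a replicate check. The other libraries, used here as lookups, are controls at days 2 and 14 and Esg>yki flies at days 2, 8 and 14 at 29 °C and at days 20, 26 and 32, which is 6, 12 and 18 days after the shift to 18 °C.

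Active Yorkie, the effector of the Hippo pathway, drives progenitor overgrowth in the fly gut, and flies with such tumours waste: flight muscle and fat body degenerate and lipid and carbohydrate stores are lost. The thorax is mostly flight and leg muscle, with fat body, cuticle-forming epidermis, nerve cord and heart. The comparison asks which transcripts of these tissues still differ once the tumour has been switched off for longer than it was on.

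The files listed 17562 genes. Levels are given in RPM, a gene's reads per 1000000 reads on genes in that library, without division by gene length, so they are compared between libraries and not between genes. The day 38 libraries held 18521857 reads (control) and 14615109 reads (Esg>yki), the latter the lowest of the 10 totals, which reached 38208954. At these depths 3 reads were 0.162 RPM in the control and 0.205 RPM in Esg>yki. A ratio was read for the 7733 genes with at least 5 RPM in the larger day 38 library, reads under 3 were raised to 3 for the log2 ratio, and a gene was counted as different past 2-fold. The range in brackets after a fold is its 95% exact interval (Clopper-Pearson), which takes in counting error and no variation among flies or preparations. In pooled tissue, fewer cells of a type and less RNA per cell cannot be told apart.

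Markers of muscle and fat body matched a thorax in both libraries, and those of the male reproductive tract were nearly absent. The male dosage compensation RNAs roX1 and roX2 were at 4547 and 120 RPM in the control and 3853 and 164 RPM in Esg>yki. The female fat body genes Yp1, Yp2 and Yp3 had 51, 28 and 26 reads in the control and 53, 19 and 29 in Esg>yki, all under 5 RPM. No other library was above 0.741 RPM for Yp1. Some markers of gut enterocytes and both markers of the eye were higher in the Esg>yki library. The 8 flight muscle markers summed to 19831 RPM in the control and 21949 RPM in Esg>yki, and the 6 fat body markers to 20724 and 18985 RPM. The 5 testis markers summed to 0.0540 and 0.205 RPM, the 4 accessory gland markers to 0.108 and 0.205 RPM, and the 2 Malpighian tubule markers to 0.324 and 0.205 RPM, each at or within a few reads of the 3-read limit. The 8 gut enterocyte markers summed to 5.18 and 17.6 RPM, with the trypsin gene alphaTry at 12 and 55 reads, betaTry at 2 and 38 reads and the amylase gene Amy-p at 45 and 142 reads. Others went the other way, with Npc1b at 15 and 8 reads, Jon99Ci at 19 and 14 and thetaTry at 3 and 0. Jon25Bi and PGRP-SC1a had 0 reads in both, and only Amy-p reached 5 RPM. The sum of the 8 was highest in Esg>yki of day 2, at 45.9 RPM, and their part in the day 38 differences was not tested. The 2 eye markers, ninaE and Rh4, did not match a thorax in the Esg>yki library: they summed to 0.594 RPM in the control and 282 RPM in Esg>yki.

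Transcripts of yki itself were close in the 2 genotypes at day 38, at 13.5 RPM (250 reads) in control and 15.0 RPM (219 reads) in Esg>yki thoraces, a ratio of 1.11 (0.922 to 1.34). Over all 10 libraries yki lay between 5.49 and 15.0 RPM, and the control and Esg>yki levels were 6.25 and 5.49 RPM at day 2 and 7.73 and 8.67 RPM at day 14. The transgene is driven in the gut, so its level in the thorax is not a check of its induction. The driver gene esg, a marker of gut progenitors, was at 0.756 and 1.30 RPM at day 38, under the 5 RPM minimum.

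After 24 days without tumour induction, few thoracic transcripts differed between the genotypes. Esg>yki thoraces were past 2-fold above the control for 177 of the 7733 genes (2.29%) and past 2-fold below it for 71 (0.918%). The median log2 ratio over all 7733 genes was -0.07 and the middle 50% of them spanned 0.34 on the log2 scale. At day 2, after 2 days of induction, 163 of the same genes were past 2-fold and the middle 50% spanned 0.31. At day 14, the end of induction, 1366 were past 2-fold and the span was 0.81.

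Most of what was lower at day 14 was not lower at day 38. Of the 1218 genes more than 2-fold lower in Esg>yki at day 14 (15.8%), 1128 lay within 2-fold at day 38 (92.6%), 49 were still lower and 41 were higher. Of the 148 genes higher at day 14 (1.91%), 91 lay within 2-fold (61.5%), 57 were still higher and 0 were lower. Over all 7733 genes only 71 were lower (0.918%) and 177 higher (2.29%) at day 38, so most genes of any kind lay within 2-fold. The day 14 counts depend on how the libraries are scaled, because the Esg>yki library of that day gave 46.9% of its reads to the mitochondrial genome against 29.3% in its control. With TMM factors, which trim the extreme genes before scaling, 578 genes were lower and 383 higher at day 14, and with scaling to nuclear protein-coding genes 454 were lower and 538 higher. At day 38 the mitochondrial shares were 25.2% in control and 27.5% in Esg>yki, and the median log2 ratio of all genes was -0.03 with TMM factors and -0.01 with nuclear scaling.

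**Figure D1:**
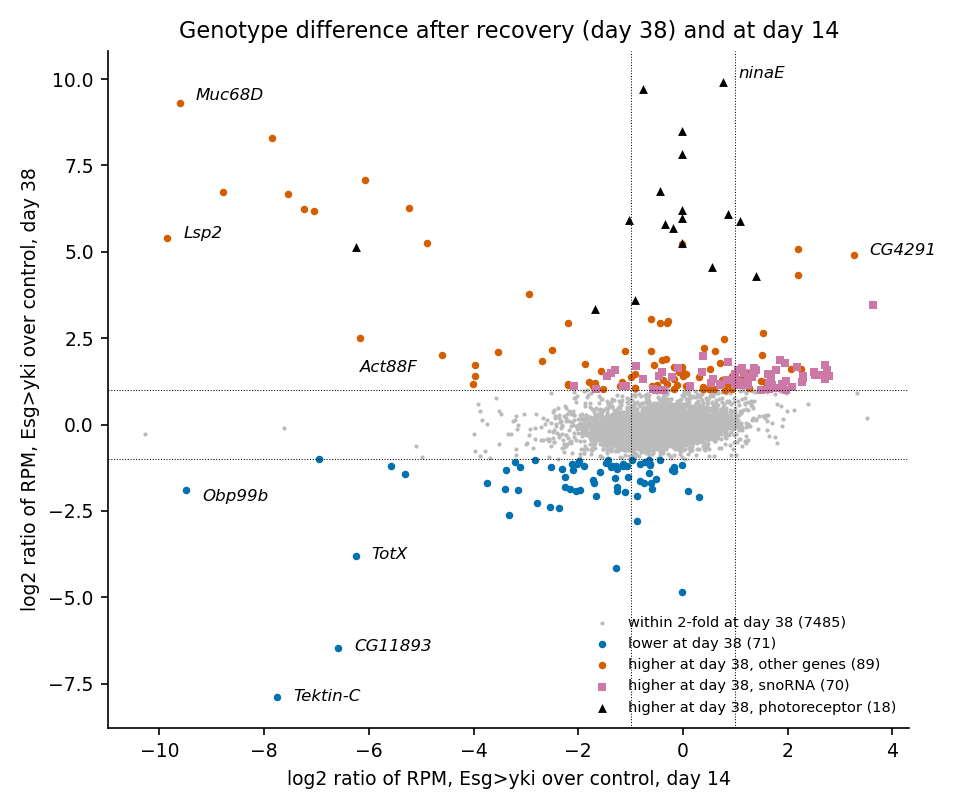
Log2 ratio of Esg>yki over control at day 14 (horizontal) and at day 38 (vertical), both on RPM, with a point per gene for the 7733 genes read at day 38, with the called genes coloured by kind. The cloud is wide along the day 14 axis and narrow along the day 38 axis, with 71 genes under the lower line and 177 over the upper one, of which 70 are small nucleolar RNA genes and 18 are photoreceptor genes.

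The called genes were looked up in the 4 libraries of days 2 and 14, which take no part in the day 38 ratio. Of the 71 lower genes, 49 were also more than 2-fold lower at day 14 (69.0%, against 15.8% of all genes) and 17 at day 2 (23.9%, against 0.608%). Of the 177 higher genes, 57 were also higher at day 14 (32.2%, against 1.91%) and 41 were lower there (23.2%, against 15.8%), while 58 were higher at day 2 (32.8%, against 1.5%). Without small nucleolar RNA genes, 107 genes were higher at day 38, of which 15 were higher and 34 lower at day 14. In total 15 of the 71 lower genes (21.1%, against 0.336% of all genes lower at both days 2 and 14) and 20 of the 177 higher genes (11.3%, against 0.362%) passed 2-fold the same way at all 3 days.

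The higher genes were of unlike kinds. Small nucleolar RNAs, which guide chemical modification of ribosomal RNA, made up 70 of them, out of 133 such genes read (median log2 ratio 1.01), and none was lower. Protein-coding genes gave 96 higher and 66 lower of 7460. Transfer RNA genes gave 4 higher of 9, long and other non-coding RNAs 4 higher and 5 lower of 98, and pseudogenes 2 higher of 12. By chromosome, 19 of the 1472 genes on 3L (1.29%) and 24 of the 1881 on 3R (1.28%) were lower, against 3 of the 1274 on X (0.235%).

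Genes of the eye had some of the largest ratios of the comparison, with ninaE and Arr1 the highest. ninaE, the rhodopsin of the outer photoreceptors (FBgn0002940, chromosome 3R), had 5 reads in the day 38 control and 3844 in day 38 Esg>yki, or 0.270 and 263 RPM, a log2 ratio of 9.93. In the other 8 libraries it ran from 0.262 to 3.71 RPM. Arr1 and Arr2, the arrestins that switch rhodopsin off, went from 0.162 to 137 RPM and from 0.810 to 185 RPM. ninaC, a myosin of the photoreceptor's light-sensing membrane, went from 0.162 to 58.9 RPM, and trp, the light-activated cation channel, from 0.648 to 44.4 RPM. A single library thus carried these transcripts: day 38 Esg>yki was the highest of all 10 libraries for each of them.

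Of 31 genes listed for phototransduction and photoreceptor structure, 28 reached 5 RPM at day 38. Of these, 18 were more than 2-fold higher and none was lower, against 2.29% and 0.918% of all genes. The log2 ratios of the 18 ran from 3.33 to 9.93. None of the 18 was above 1.78 RPM in the control. They thus reached the minimum only through Esg>yki, which fixed the call as higher, and their count is a description only. All 18 were highest in day 38 Esg>yki, and their sum was 923 RPM there, 9.18 RPM in the day 38 control and between 5.32 and 35.1 RPM in the other 8 libraries. They include the other rhodopsins Rh3, Rh4, Rh5 and Rh6, the second channel trpl, the kinase inaC, the scaffold inaD, the G protein subunit Gbeta76C and the adhesion protein chp. Pdh, a dehydrogenase of the eye's pigment cells, had 1.67 RPM in the control and 59.5 RPM in Esg>yki and was also seen in the younger controls, at 21.3 and 16.8 RPM. The 10 genes within 2-fold were ones that other tissues use as well, such as norpA, a phospholipase C, at 110 and 133 RPM, and Galphaq at 55.1 and 60.8 RPM. The 5 markers of neurons and glia in general had a median log2 ratio of -0.07. Some odorant-binding protein genes of the antenna, all under 5 RPM and picked after their values had been seen, were also highest in that library. Obp83b had 1 read in the control and 49 in Esg>yki (0.0540 and 3.35 RPM, at most 0.0966 RPM in the other 8), Obp83a 0 and 41, Obp69a 2 and 24, and Obp59a 0 and 19. Other genes of the family did not follow, such as Obp83ef at 68 and 49 reads and Obp19a at 14 and 10. Of the 13 odorant-binding protein genes that reached 5 RPM, 0 were higher and 1 was lower. The photoreceptor list was written after its values had been seen, and the part of other tissue in the day 38 Esg>yki library was not tested. Without the photoreceptor genes, 159 genes were higher and 71 lower.

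A second set was high in that library and in some others. Muc68D, a mucin (chromosome 3L), had 2 reads in the day 38 control and 1488 in day 38 Esg>yki, or 0.108 and 102 RPM. It was also at 98.8 RPM in the day 14 control, 52.4 RPM in day 26 Esg>yki and 15.0 RPM in day 2 Esg>yki, and at most 0.785 RPM in the other 5 libraries. CG14645, CG34324, CG31077, CG3906, CG15043 and CG14125 followed it. The 7 genes summed to 244 RPM in day 38 Esg>yki, 0.594 RPM in its control, 246 RPM in the day 14 control, 81.7 RPM in day 26 Esg>yki, 37.9 RPM in day 2 Esg>yki and 0.271 to 2.12 RPM in the other 5. Their level thus did not separate the genotypes. CG34324 had 0 reads in the day 38 control and 318 in Esg>yki, at least 134-fold higher against 3 reads. Exons of CG14645 overlap those of Skp2 on the other strand, and the use of strand in counting is not given in the sources used here.

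Small nucleolar RNAs differed between libraries of the same genotype by more than between the genotypes at day 38. Summed over 303 genes they were at 1894, 3084 and 5922 RPM in the controls of days 2, 14 and 38. In Esg>yki they were at 2477, 6371, 5276, 11216, 7099, 3824 and 10578 RPM at days 2, 8, 14, 20, 26, 32 and 38. The day 38 ratio of these sums was thus read from the highest of the 3 controls and the second highest Esg>yki library, and the day 32 Esg>yki library was below the day 38 control. snoRNA:Me28S-G2017, whose name gives its target base in 28S ribosomal RNA, had 95.5 RPM in the day 38 control and 285 RPM in Esg>yki, and 62.4 RPM in Esg>yki of day 32.

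**Figure D2:**
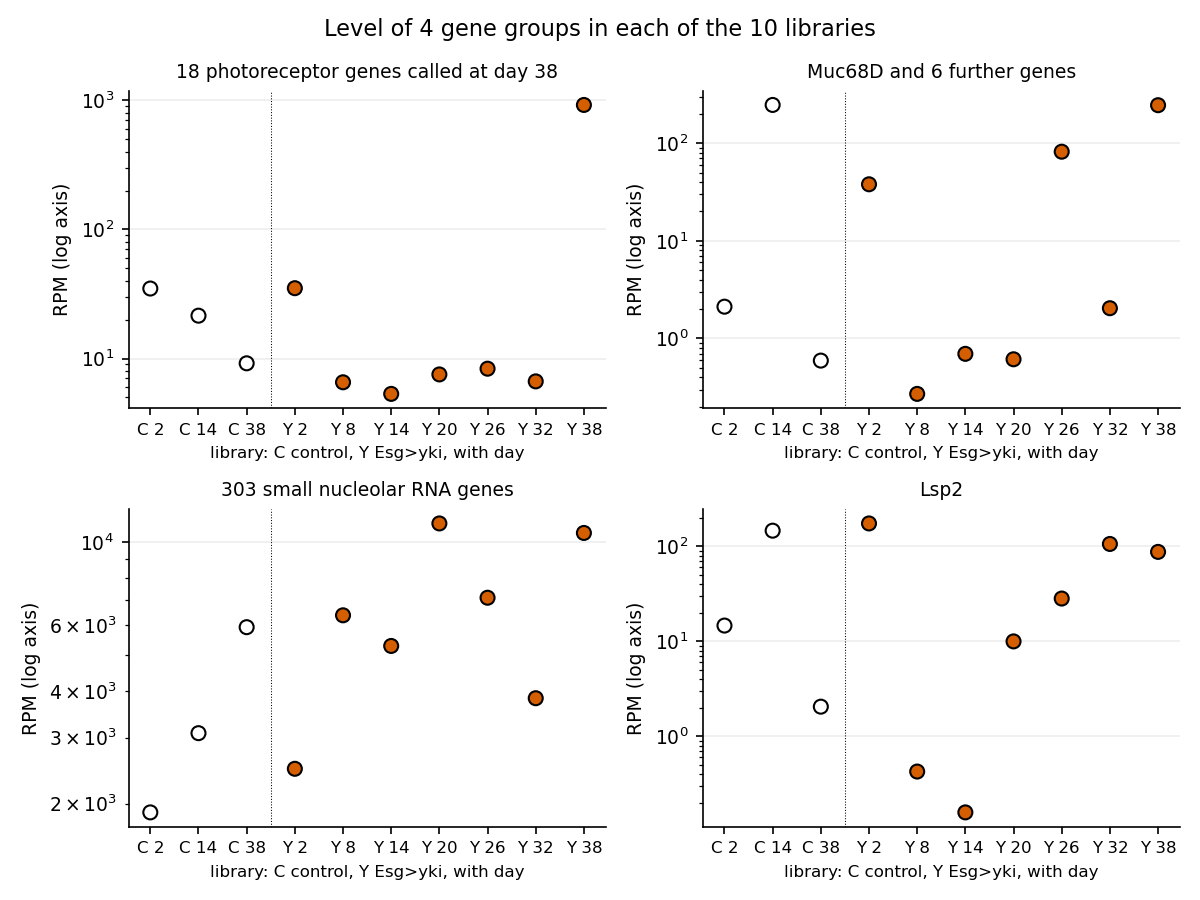
Summed RPM (log axis) in each of the 10 libraries for the 18 photoreceptor genes called higher, the 7 genes around Muc68D, 303 small nucleolar RNA genes and Lsp2 alone, with control (C) and Esg>yki (Y) libraries by day. The photoreceptor sum reaches 923 RPM in the day 38 Esg>yki library and at most 35.1 RPM elsewhere, while the Muc68D set is as high in the day 14 control as in day 38 Esg>yki.

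For a smaller set of genes the libraries of the 2 genotypes did not overlap over the series. All 7 Esg>yki libraries were below all 3 control libraries for 54 of the 7733 genes (0.698%) and above them for 33 (0.427%). With 7 libraries against 3, some genes separate in full by chance, and how many of these did so was not tested. The 2 sets include 19 of the genes called lower at day 38 and 14 of those called higher. Since the day 38 libraries enter both counts, nothing is read from that overlap. The genes described next were taken from those also called at day 38. The 7 Esg>yki libraries differ in day and temperature and are not replicates, so a lack of overlap is given as a description only. The genotypes also differ in the chromosome that carries the transgene, and its background cannot be told apart from the tumour in such genes.

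Tektin-C, which encodes a filament protein of cilia and sperm tails (FBgn0035638, chromosome 3L), had the lowest ratio at day 38. The day 38 control had 1200 reads (64.8 RPM) and Esg>yki had 4 (0.274 RPM), a level 237-fold lower (92.2 to 870). It was at 12.2 and 41.0 RPM in the controls of days 2 and 14 and between 0.190 and 0.550 RPM in all 7 Esg>yki libraries. The testis markers were at or near 0 in both day 38 libraries, as given above. CG11893 (FBgn0039316, chromosome 3R) had 671 reads (36.2 RPM) in the control and 6 (0.411 RPM) in Esg>yki, 88.2-fold lower (40.3 to 241). The other controls were at 13.6 and 48.6 RPM, and no Esg>yki library was above 0.733 RPM. Both genes were thus nearly silent in Esg>yki thoraces already at day 2 and remained so at day 38.

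Other genes of this kind were present in both genotypes at different levels. HipHop, a protein that caps chromosome ends (chromosome 3L), was at 8.91 RPM in the day 38 control and 1.71 RPM in Esg>yki, with the 3 controls from 8.91 to 16.2 RPM and the 7 Esg>yki libraries from 1.71 to 4.92 RPM. Ugt35C1, a UDP-glycosyltransferase, was at 25.8 and 5.34 RPM, with the controls from 18.2 to 27.8 RPM and Esg>yki from 2.98 to 7.97 RPM. tut, a regulator of germline proliferation, was at 13.7 and 3.76 RPM. The lowest control, at 9.12 RPM on day 2, was above every Esg>yki library. In none of the 3 did the genotypes overlap.

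Among the genes above control in every library, CG4291 (FBgn0031287, chromosome 2L) had the largest ratio. It had 3.89 RPM in the day 38 control and 117 RPM in Esg>yki, 30.1-fold higher (23.8 to 38.7). The other controls were at 11.4 and 7.98 RPM, and Esg>yki ran from 37.4 RPM at day 2 to 180 RPM at day 32. Spn47C, a serpin, was at 23.8 and 58.6 RPM at day 38, with the controls from 11.0 to 23.8 RPM and no Esg>yki library under 31.4 RPM. CG43679 was at 26.1 and 61.1 RPM, with the controls from 13.7 to 26.1 RPM and Esg>yki from 32.1 to 150 RPM. The cytochrome P450 gene Cyp6a14 was at 1.51 and 8.48 RPM, and no Esg>yki library was under 2.21 RPM. CG42876 and CG12896 were low in the controls, at most 0.741 and 1.42 RPM, and reached 6.57 and 5.47 RPM in day 38 Esg>yki.

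**Figure D3:**
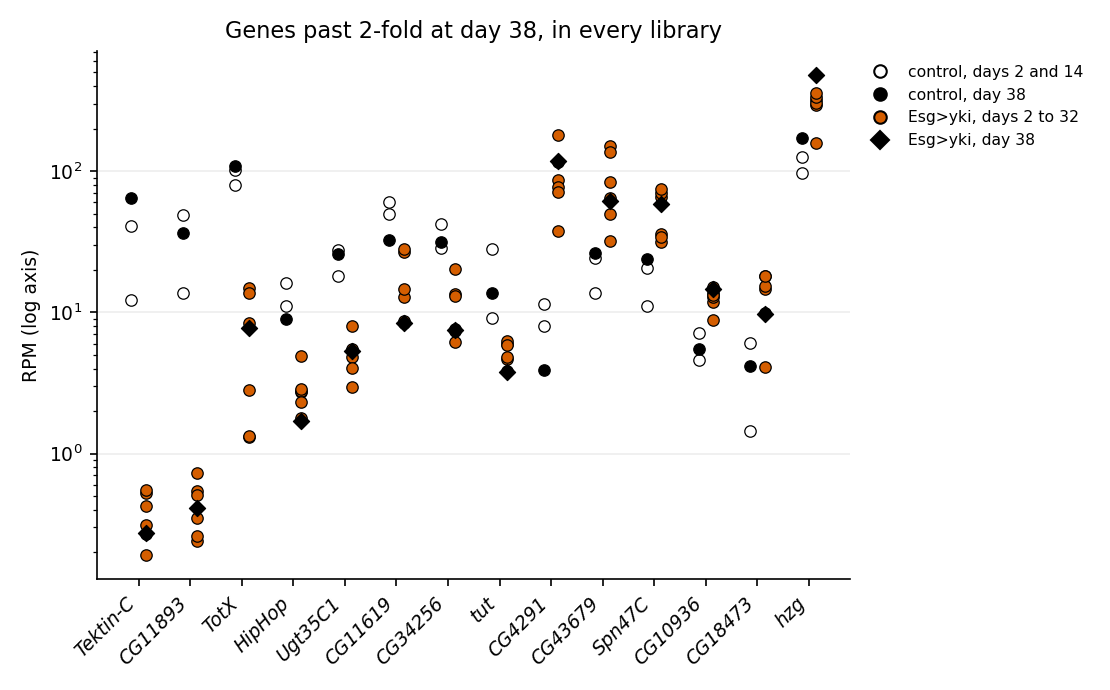
RPM (log axis) of 14 genes in each of the 10 libraries, with circles for controls (white at days 2 and 14, black at day 38) and orange circles (days 2 to 32) or a black diamond (day 38) for Esg>yki. Tektin-C and CG11893 are below 1 RPM in every Esg>yki library and above 12 RPM in every control, and for CG4291 every Esg>yki library lies above every control.

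A model over the 3 ages with both genotypes asked which genes differed in the same way at days 2, 14 and 38. It was fitted by edgeR's quasi-likelihood test on the 6 libraries, with the day as a factor and 2 residual degrees of freedom. Of 10459 genes, 1 was lower in Esg>yki at an adjusted p under 0.05 (0.00956%) and 0 were higher. The gene was CG11893, with a fitted log2 ratio of -6.16 and a Benjamini-Hochberg adjusted p of 0.00384 from edgeR. At an unadjusted p under 0.05 the same fit had 415 genes higher and 439 lower, and DESeq2 on the same 6 libraries called 109 higher and 55 lower. HipHop had an adjusted p of 0.098 in edgeR with a log2 ratio of -2.19, lower at 3 of 3 days, and Tektin-C 0.117 with -6.47, lower at 3 of 3 days. Leaving out the 2 libraries of day 38 left no gene called in either direction, leaving out day 2 gave 2 lower, and leaving out day 14 gave 75 higher and 20 lower.

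Genes of energy metabolism and muscle lay close to the control at day 38. Among 11 glycolysis genes, 17 of the TCA cycle and 62 nuclear genes of the respiratory chain and ATP synthase, none was past 2-fold in either direction at day 38. Over all genes 2.29% were higher and 0.918% lower, so a count of 0 is near those shares in lists of this size. These shares also stand beside the translation, proteasome, sarcomere and fuel storage lists below. Their median log2 ratios were -0.07, -0.15 and -0.10, against -0.07 over all genes. At day 14 the same genes had medians of -1.11, -0.78 and -0.86, with 8, 6 and 26 of them more than 2-fold lower. All genes had a median of -0.34 on that day, with 15.8% of them lower. With nuclear protein-coding scaling the day 14 medians were -0.67, -0.34 and -0.42, with 1, 1 and 2 genes lower, while all genes were at 0.10. These 3 medians were thus below 0 at day 14 under both scalings and differed in size.

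The mitochondrial and cytosolic translation machinery was likewise near 0. Of 58 mitochondrial ribosomal protein genes, 1 was higher and 0 lower (median -0.08, at day 14 -1.03 with 31 lower). Of 84 cytosolic ribosomal protein genes, 1 was higher and 0 lower (median 0.06, at day 14 -0.72 with 24 lower). With nuclear scaling the day 14 medians were -0.59 and -0.27. The single higher genes were mRpS35 (9.99 and 20.5 RPM) and RpL23A (14.1 and 40.3 RPM), and RpL23A shares exons with the small nucleolar RNA host Uhg7. The 13 protein-coding genes of the mitochondrial genome had a median of 0.25 at day 38 and 0.66 at day 14, none lower at either day. The 31 proteasome genes, which degrade tagged proteins, gave none past 2-fold, but 30 of them were below 0, with a median of -0.31. Over all 7733 genes 4716 were below 0, with a median of -0.07.

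**Figure D4:**
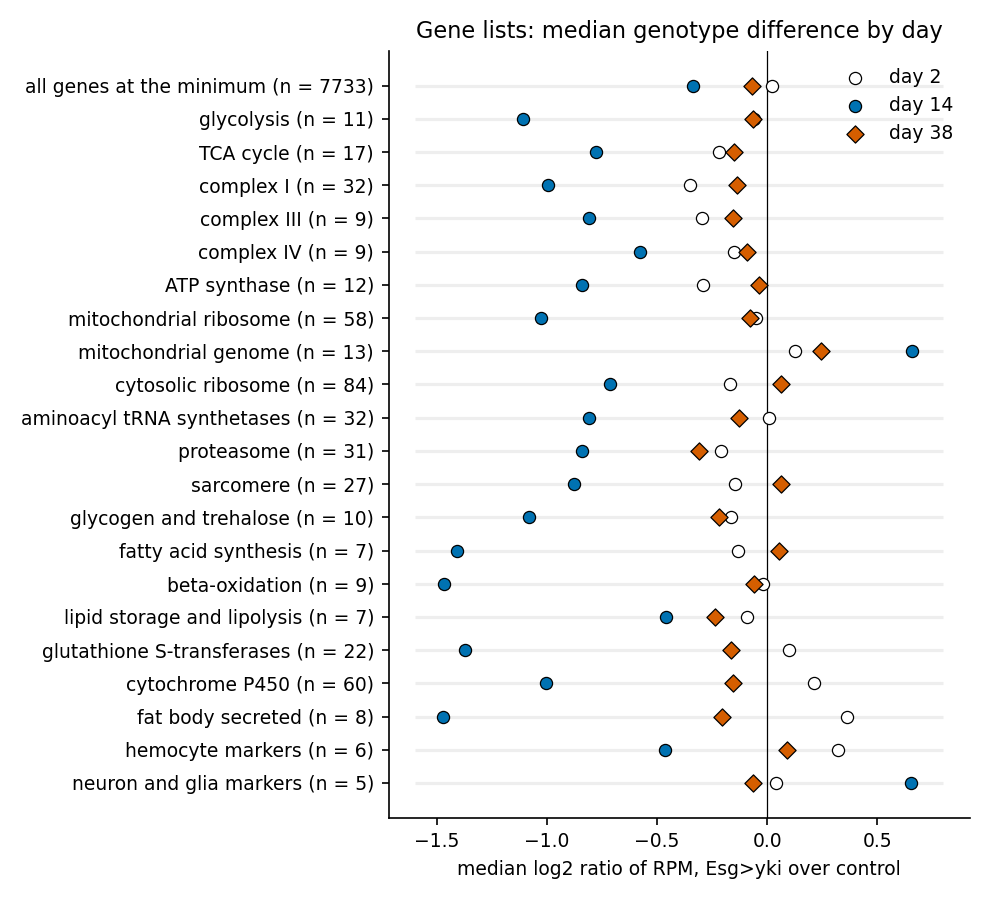
Median log2 ratio of Esg>yki over control, on RPM, for 21 gene lists and for all genes at days 2, 14 and 38, over the members that reached 5 RPM at day 38. Among the 21 lists drawn, the day 38 medians lie between -0.31 (proteasome) and 0.25 (mitochondrial genome), and at day 14 the lowest are near -1.47 (beta-oxidation, fat body secreted). Lists with day 38 medians outside that range are not drawn. They include photoreceptor genes (4.85), small nucleolar RNAs (1.01), purine, serine and one-carbon genes (0.78) and Turandot and Drosomycin-like genes (-1.19).

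Of 27 sarcomere genes, 25 were within 2-fold at day 38 (median 0.06, at day 14 -0.88 with 9 lower, or -0.44 with 5 lower with nuclear scaling). Myosin heavy chain, Mhc, was at 4039 RPM in the control and 5831 RPM in Esg>yki, and the myosin light chain Mlc2 at 4185 and 4739 RPM. Both genes past 2-fold are of the flight muscle. fln, which encodes flightin, a thick filament protein, was at 111 RPM in the control and 45.3 RPM in Esg>yki. Its controls were at 1845 and 419 RPM at days 2 and 14, and the Esg>yki libraries from day 8 on lay between 23.4 and 108 RPM. Act88F, the actin of flight muscle thin filaments, was higher, at 1092 and 2906 RPM, after 4861 and 309 RPM at day 14. The Act88F levels of the 2 genotypes overlapped over the series, since the day 14 control was the highest of all 10 libraries. Exons of fln overlap an antisense RNA, asRNA:CR45161.

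Fuel storage genes differed little. All 10 glycogen and trehalose genes, 7 lipid storage genes, 7 fatty acid synthesis genes and 9 beta-oxidation genes were within 2-fold, with medians of -0.22, -0.24, 0.05 and -0.06. At day 14 their medians were -1.08, -0.46, -1.41 and -1.47, and with nuclear scaling -0.64, -0.01, -0.97 and -1.02. FASN1, the main fatty acid synthase of fat body, was at 1953 RPM in the control and 2186 RPM in Esg>yki, and the desaturase Desat1 at 948 and 1120 RPM. Pepck2, a paralog of the gluconeogenic enzyme Pepck1, was lower, at 38.9 and 12.1 RPM. It was between 3.54 and 13.4 RPM in every Esg>yki library from day 8 on, while the day 14 control was at 9.88 RPM.

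Larval serum proteins, amino acid stores made by fat body, were among the genes higher at day 38. Lsp2 had 38 reads (2.05 RPM) in the control and 1276 (87.3 RPM) in Esg>yki, 42.6-fold higher (30.8 to 60.4). At day 14 it was the other way round, at 146 RPM in control and 0.158 RPM in Esg>yki, and at day 2 it was at 14.6 and 174 RPM. The Esg>yki levels after the shift to 18 °C were 9.98, 28.2, 106 and 87.3 RPM at days 20, 26, 32 and 38. Each genotype thus held libraries with much and with little Lsp2. Lsp1alpha was at 1.57 and 6.71 RPM at day 38, and Lsp1beta at 15.0 and 12.4 RPM, within 2-fold. The alpha-glucosidase gene tobi, a target of insulin and glucagon-like signals in fat body, was at 5.18 and 17.2 RPM at day 38 and at 19.0 and 1.20 RPM at day 14. Exons of Lsp2 and of tobi overlap those of a gene on the other strand, asRNA:CR11538 and rha.

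Further genes were higher at day 38 than in any other library. Cht10, a chitinase that acts on cuticle, was at 15.1 RPM in the control and 115 RPM in Esg>yki, 7.60-fold higher (6.69 to 8.65), and at 30.2 RPM in Esg>yki of day 32. CG32195 was at 28.7 and 218 RPM, 7.60-fold higher (6.93 to 8.35). Its Esg>yki levels were 31.5, 67.9, 143 and 218 RPM at days 20, 26, 32 and 38, against 13.7 to 28.7 RPM in the 3 controls, and it shares exons with CG7341. hzg was at 173 and 481 RPM, and every Esg>yki library from day 8 on was at 294 RPM or more while the 3 controls were at 96.3, 125 and 173 RPM. Unlike the photoreceptor genes, CG32195 and hzg were also above the 3 controls in the Esg>yki libraries of days 26 and 32.

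Genes that make serine, one-carbon units and purines, the building blocks of nucleotides, lay mostly above 0. With asparagine synthetase (AsnS) counted among them, 15 listed genes reached the minimum. Of these, 13 were above 0, against 3017 of all 7733 genes, and 3 were more than 2-fold higher, against 177. Their median was 0.78 at day 38, -0.49 at day 14 and 0.23 at day 2. aay, a phosphoserine phosphatase of serine synthesis, was at 30.1 RPM in the control and 91.0 RPM in Esg>yki, 3.03-fold higher (2.74 to 3.35). Nmdmc, a folate enzyme of mitochondria, was at 17.9 and 45.5 RPM. Asparagine synthetase, AsnS, had a log2 ratio of 1.15. The purine enzymes Prat2 (149 and 282 RPM), Pfas (112 and 213 RPM) and Gart (123 and 212 RPM) and the serine hydroxymethyltransferase Shmt (39.9 and 71.7 RPM) were higher by less than 2-fold. At day 14 these 4 had log2 ratios from -0.38 (Prat2) to -1.27 (Shmt) on RPM, and with nuclear scaling from 0.060 (Prat2) to -0.82 (Shmt), so that Prat2 changed sign. The list was written after its values had been seen.

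**Figure D5:**
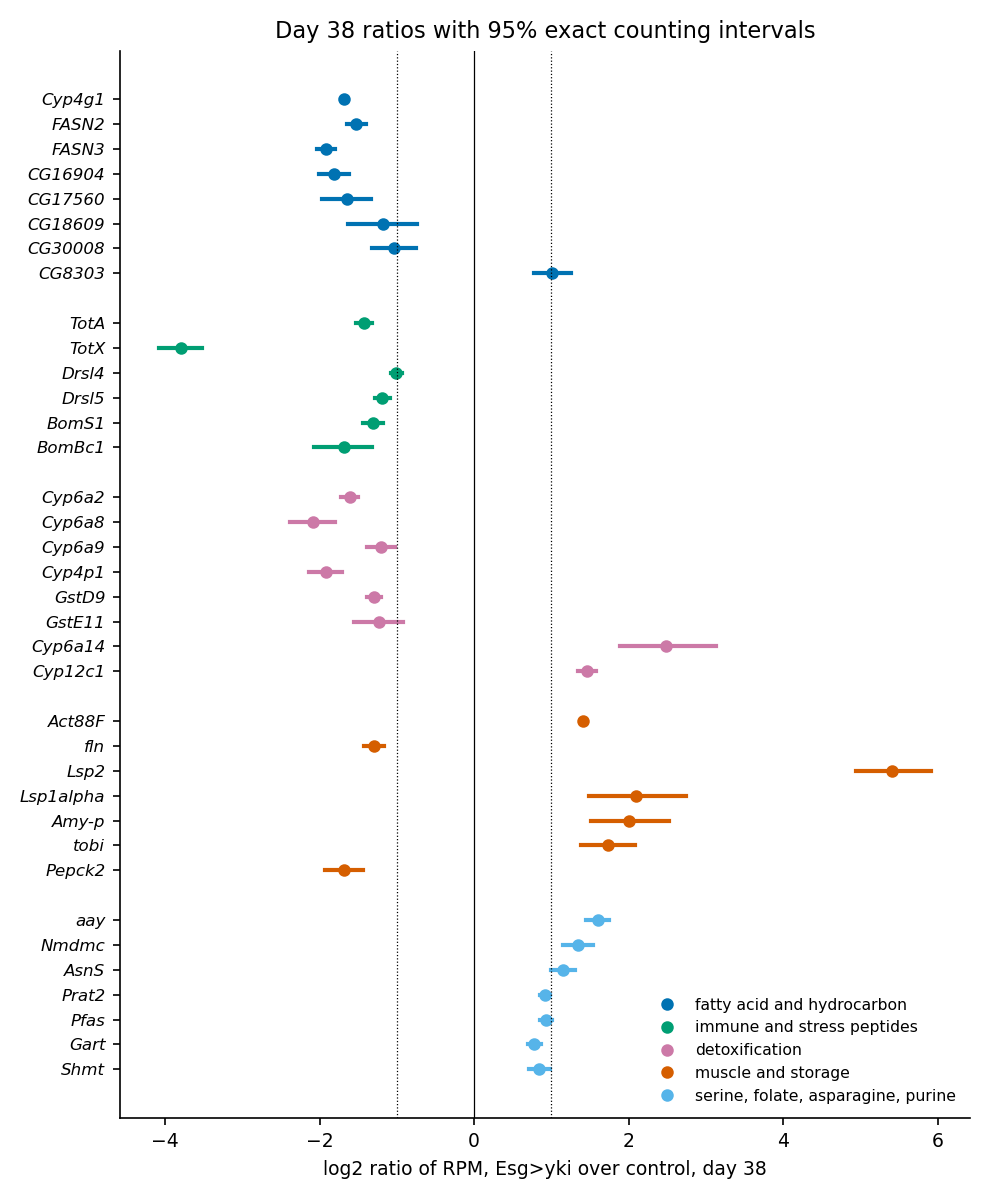
Log2 ratio of Esg>yki over control at day 38 for genes of 5 groups, with 95% exact counting intervals as bars, a line at 0 and dotted lines at 2-fold. Each group's bars are short against its distance from 0 except where a library held few reads, and they cover counting error only.

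On the lower side were some genes for very-long-chain fatty acids and the hydrocarbons of the cuticle, which are made largely in the oenocytes under the cuticle. Of 26 genes at the minimum, 7 were lower and 1 higher, against 0.918% and 2.29% of all genes. The median was -0.04, against -0.07 over all genes, and 11 of the 26 were above 0, so most of the list did not move. FASN3, a fatty acid synthase, was at 188 RPM in the control and 49.7 RPM in Esg>yki, 3.78-fold lower (3.48 to 4.10). FASN2, another, was at 127 and 44.3 RPM, and the elongase gene CG16904 at 64.0 and 18.3 RPM. Cyp4g1, the cytochrome P450 that makes cuticular hydrocarbons, was at 1424 and 444 RPM, 3.21-fold lower (3.12 to 3.30). For FASN3 the Esg>yki levels at days 20, 26 and 32 were 112, 108 and 98.1 RPM, and for Cyp4g1 1016, 1075 and 1034 RPM. Day 38 was thus lower than the 3 preceding Esg>yki libraries for both, as it was for FASN2 and CG16904. This list too was written after its values had been seen.

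Some stress-induced secreted peptides were lower. The share of lower genes over all genes was 0.918% at day 38. Of 5 Turandot and Drosomycin-like genes at the minimum, 4 were lower. The other, Drs, which encodes Drosomycin itself, was within 2-fold, at a log2 ratio of 0.44. The median of the 5 was -1.19 at day 38, against -5.58 at day 14 and -1.09 at day 2. This list was also written after its values had been seen. TotX was at 109 RPM in the control and 7.80 RPM in Esg>yki, 13.9-fold lower (11.5 to 17.0). The 3 controls were from 79.8 to 109 RPM and the 7 Esg>yki libraries from 1.32 to 14.9 RPM, with no overlap. Drsl4 was at 322 and 160 RPM, 2.01-fold lower (1.91 to 2.11), just past the limit. Its Esg>yki level was 1.99 RPM at day 14 and 190, 179 and 160 RPM at days 26, 32 and 38. Drsl5 was at 182 and 79.8 RPM, and TotA at 189 and 70.3 RPM. The Bomanins and Daishos, effector peptides of the Toll pathway, gave 2 lower of 13, the Bomanins BomS1 (109 and 43.9 RPM) and BomBc1 (16.7 and 5.20 RPM). Of 14 antimicrobial peptide genes only 2 reached the minimum, both within 2-fold, and 0 of 15 Imd and Toll pathway genes differed.

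Detoxification enzymes gave calls in both directions. Over all genes, 2.29% were higher and 0.918% lower at day 38, and 15.8% were lower at day 14 on RPM. Of 60 genes with a Cyp symbol, 6 were lower and 3 higher (median -0.15), where at day 14 there were 30 lower (16 with nuclear scaling). The 60 are cytochrome P450 genes apart from the cyclophilin genes Cyp1 and Cyp40. Both were within 2-fold at day 38, and Cyp40 was among the 30 lower at day 14. Cyp6a2 was at 163 RPM in the control and 53.2 RPM in Esg>yki, 3.06-fold lower (2.82 to 3.31), and lower at 3 of 3 days. Cyp6a8 was at 34.5 and 8.14 RPM, and at 55.7 RPM in Esg>yki of day 20. Cyp12c1 was higher, at 43.2 and 119 RPM. Of 22 glutathione S-transferase genes, 2 were lower and none higher, GstD9 at 201 and 81.8 RPM and GstE11 at 18.0 and 7.66 RPM, where at day 14 there were 16 lower (9 with nuclear scaling). Several P450 and glutathione S-transferase genes are near copies of each other, and how reads that match more than 1 of them were counted is not given in the sources used here.

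Obp99b, an odorant-binding protein gene, was at 155 RPM in the control and 41.5 RPM in Esg>yki at day 38, 3.74-fold lower (3.43 to 4.09). At day 14 it was at 975 and 1.36 RPM, and the Esg>yki levels were 1.53, 4.12, 38.5 and 41.5 RPM at days 20, 26, 32 and 38. It was the only one past 2-fold of the 13 odorant-binding protein genes that reached 5 RPM. The level after the shift to 18 °C was thus higher than at its end of induction and still below the day 38 control.

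Genes the study followed as candidates in wasting muscle were within 2-fold at day 38. REPTOR, a transcription factor held inactive by TOR, was at 340 RPM in the control and 243 RPM in Esg>yki, 1.40-fold lower (1.34 to 1.46), after 204 and 467 RPM at day 14. Its Esg>yki levels were 445, 250, 246 and 243 RPM at days 20, 26, 32 and 38. CG10383 was at 60.4 and 41.9 RPM at day 38 and at 51.5 and 178 RPM at day 14, and l(1)G0469 at 40.5 and 32.4 RPM and at 30.8 and 70.8 RPM. ImpL2, a secreted insulin antagonist, was at 20.9 and 20.2 RPM at day 38, a log2 ratio of -0.05. CG1673 was at 56.2 and 83.9 RPM, Gadd45, a stress-induced gene, at 7.61 and 10.9 RPM, RhoGAP68F at 81.5 and 70.8 RPM and CG42390 at 475 and 478 RPM. REPTOR, CG10383 and l(1)G0469 were above control at day 14 and below it at day 38, each by less than 2-fold at day 38.

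Other regulatory groups are given beside the shares over all genes, 2.29% higher and 0.918% lower. In lists of this size a count of 0 is near those shares. Of 19 insulin, TOR and FoxO genes, tobi was higher and Pepck2 lower (median -0.12), and none of 11 Hippo, 9 clock, 20 autophagy, 19 vacuolar ATPase and 32 aminoacyl tRNA synthetase genes was past 2-fold. Of 11 unfolded protein and integrated stress response genes, 2 were higher, and these were Nmdmc and AsnS. The 6 hemocyte markers had a median of 0.09, with none past 2-fold.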

How the data were processed

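Total RNA of pooled thoraces was depleted of rRNA and sequenced as single reads, with each library divided into 4 pools. Per the study's methods the authors aligned reads with STAR to the FlyBase genome. The counting program and its use of strand are not given in the sources used here. For each gene the authors deposited an estimated count, always a multiple of 0.25. If that is an average of the pools, 4 times the value is the read number; this was assumed, and the product was taken as reads and divided by the reads on genes (RPM). Rows naming no gene held 1 read. Genes needed 5 RPM in the larger library, reads under 3 were raised to 3, and calls were past 2-fold. Where a library had 0 reads the fold is a lower bound against 3 reads. The fit over days 2, 14 and 38 used edgeR 4.0.16 (TMM, filterByExpr) in R 4.3.3, with DESeq2 1.42.0 as an alternative. Procedures were tested on simulated data. Coordinates and overlaps come from the Ensembl annotation of the BDGP assembly; 17506 of 17562 identifiers matched. No test across replicates exists at day 38, and p-values in the fit measure only the spread between single libraries.

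Genes named are the 12 in each direction with the largest ratio at 10 RPM or more, the 6 at 200 RPM or more, the 8 with the lowest p in the fit among called genes, list members and the study's candidates. CG4291, Cht10, Lsp1alpha, FASN2, CG16904, TotA, Drsl5, BomS1, GstE11, Cyp12c1, CG12896, CG42876, Mhc, Mlc2, Desat1, FASN1, Lsp1beta, the purine genes and the antennal Obp genes were named after their values were seen. The members and lists were chosen with earlier results of these data known; 51 lists were written first and 4 after seeing values. Alternatives were 3 other scalings, other minimums and cut-offs, a pseudocount, and the day 32 Esg>yki library in place of day 38.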

Additional observations from a re-analysis of the deposited data

Results flagged for a closer look

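Some genes passed 2-fold in opposite directions on different days, above the control at day 38 and below it at day 14. With 1 library in each group the difference between the days was not tested. In the mucin gene Muc68D and the 6 genes that vary with it, the log2 ratio at day 14 was -9.61 for Muc68D, -7.86 for CG14645, -6.07 for CG34324, -8.78 for CG31077, -7.54 for CG3906, -5.23 for CG15043 and -7.23 for CG14125. At day 38 the same genes had 9.30, 8.31, 7.07, 6.72, 6.67, 6.27 and 6.23, with the day 14 control and the day 38 Esg>yki library as the high ones. For the fat body genes, Lsp2 had -9.85 at day 14 and 5.41 at day 38, Lsp1alpha -3.53 and 2.10, and tobi -3.98 and 1.73. The flight muscle actin Act88F had -3.97 and 1.41. Amy-p, a digestive amylase, had a log2 ratio of -4.61 on day 14 and -2.47 on day 2, and was higher in Esg>yki on day 38, with 2.43 RPM in control and 9.72 RPM in Esg>yki.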

How the results depend on the processing

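The day 38 counts were 177 genes higher and 71 lower. Scaling by TMM, DESeq2 size factors or nuclear protein-coding genes gave 193, 196 and 240 higher and 61, 61 and 79 lower. A minimum of 2, of 20 and of no RPM gave 273, 81 and 619 higher and 123, 40 and 382 lower. Limits of 1.5-fold and 4-fold gave 371 and 49 higher and 292 and 13 lower, and a whole counting interval past 2-fold left 118 higher and 47 lower. The Esg>yki library of day 32 against the same control gave 286 higher and 122 lower; there the 177 genes called higher at day 38 had a median log2 ratio of 0.15 and the 71 called lower one of -0.96. Chosen after seeing the data, leaving out small nucleolar RNA genes gave 107 higher, and protein-coding genes without photoreceptor genes gave 78 higher. The 35 genes past 2-fold the same way at all 3 days became 59 with nuclear scaling and 21 without small nucleolar RNA genes.

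The edgeR fit gave 0 higher and 1 lower. DESeq2 gave 109 and 55, no filter on low counts 8 and 6, and rounded deposited values 1 and 2. Leaving out the libraries of day 14 gave 75 and 20, those of day 2 gave 0 and 2, and those of day 38 gave 0 and 0. The cause of these changes was not tested. The fit already compares the genotypes within each day. No paired analysis was possible because, beyond the day, nothing pairs single libraries.

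With day 32 in place of day 38 the median of the eye markers was -0.045, of the small nucleolar RNAs -0.19 and of the photoreceptor genes -0.37. With every member with a read, the Turandot and Drosomycin-like median was 0.34, the ratio that the 3-read floors alone give, so it is no measured change of direction. Single genes that changed sign with day 32 were ninaE (-0.045), Arr1 (-1.04), ninaC (-1.04), Arr2 (-1.25), inaC (-1.04), Rh4 (-0.045), CG15043 (-1.04), CG14125 (-0.63), Lsp1alpha (-0.17), Amy-p (-0.78), snoRNA:Me28S-G2017 (-0.61), snoRNA:Me28S-A774b (-1.11), snoRNA:Me18S-C1096 (-0.84), Cyp12c1 (-0.61) and CG30008 (0.33). The -1.04 of Arr1, ninaC, inaC and CG15043 is likewise the ratio of the floors, with 3 reads or fewer in both libraries.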
